A study of Mus musculus with 6 samples.

Results

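The genes described here are 10 mouse genes by which natural killer (NK) cells and their cytotoxic granules are recognized, out of 56262 genes counted in whole lung. They were taken by name from the count table: the NK receptors Ncr1, Klrb1c, Klrd1 and Klrg1, the granule genes Gzma, Gzmb, Prf1 and Nkg7, and the transcription factors Eomes and Tbx21. Lungs of 3 R/R mice were compared with lungs of 3 WT littermates, all 8 weeks of age, on a C57BL/6 background and without treatment. R/R mice carry lysine-to-arginine changes at residues 329 and 332 of the RNA-binding protein RBM47 on both alleles, introduced into the germline by CRISPR knock-in, which remove the lysines to which the ubiquitin-like protein ISG15 is attached. WT mice carry neither change. The study asked how the loss of this modification alters immune gene expression in the lung, and the question here is whether NK and granule transcripts differed between R/R and WT lungs at baseline.

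NK cells are innate lymphocytes that kill infected or transformed cells without prior sensitization. Activating and inhibitory receptors on their surface set the threshold for killing, perforin opens the membrane of the target cell, and granzymes enter through it and cleave proteins that trigger cell death. Eomes and T-bet, the product of Tbx21, drive the maturation of NK cells and the expression of their granule genes. The lung holds a resident and a circulating pool of NK cells, and activated CD8+ T cells use the same granule proteins. Of the 10 genes, Ncr1 is the one most restricted to NK and related innate lymphoid cells, while Klrd1, Klrg1, Nkg7, Tbx21 and the granzymes are shared with T cells.

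Each library held between 16501092 and 18141067 counted read pairs. Values are CPM, the count of a gene relative to the TMM-scaled total of its library, and RPKM, the CPM per kilobase of exon, where levels of different genes are compared. Lung epithelial and endothelial markers were abundant in all 6 libraries (summed over 4 and 3 genes, from 24900 to 34320 CPM and from 2766 to 3260 CPM), whereas Ins2 and Krt5 were at or near 0. The cardiac gene Myh6 ranged from 1.76 CPM in WT 3 to 98.3 CPM in WT 2. Summed with Alb, Ins2 and Krt5 it came to between 2.81 and 99.8 CPM, with the highest value in WT 2, so that this sum mostly follows Myh6. Rbm47 itself was at 33.4 ± 0.712 CPM in the R/R lungs and 31.2 ± 2.89 CPM in the WT lungs (mean ± SD, n = 3; adjusted p = 0.660 by edgeR's quasi-likelihood test), and gene counts do not show the altered codons.

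The promoter sequences of 3 of the genes are shown because they carry a short motif of RUNX factors, a family whose member RUNX3 is active in NK cells and cytotoxic T cells. Over the 6 lungs, Runx3 had a Pearson's r of 0.041 with the mean log2 CPM of the 10 genes. Its log2 fold change was -0.19 (adjusted p = 0.639, edgeR's quasi-likelihood test). A link between the motif and the levels of the 10 genes was not tested. RefSeq sequences (GRCm38.p6) were available for 8 of the 10 genes. The 250 bases before the start are given 5′ to 3′ on the strand of the gene, and capitals mark TGTGGT or its reverse complement ACCACA.
Ncr1, chr7:4337465-4337714, plus strand: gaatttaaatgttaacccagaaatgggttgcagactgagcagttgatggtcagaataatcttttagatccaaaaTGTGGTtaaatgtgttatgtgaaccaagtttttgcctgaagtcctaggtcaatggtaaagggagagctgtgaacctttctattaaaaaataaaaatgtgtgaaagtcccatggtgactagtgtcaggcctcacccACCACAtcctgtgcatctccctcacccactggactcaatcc
Gzma, chr13:113100982-113101231, minus strand: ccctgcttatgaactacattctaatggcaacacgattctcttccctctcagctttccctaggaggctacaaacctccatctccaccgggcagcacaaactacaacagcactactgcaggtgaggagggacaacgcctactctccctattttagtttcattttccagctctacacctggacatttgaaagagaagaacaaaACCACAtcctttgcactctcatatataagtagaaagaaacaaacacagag
Gzmb, chr14:56262335-56262584, minus strand: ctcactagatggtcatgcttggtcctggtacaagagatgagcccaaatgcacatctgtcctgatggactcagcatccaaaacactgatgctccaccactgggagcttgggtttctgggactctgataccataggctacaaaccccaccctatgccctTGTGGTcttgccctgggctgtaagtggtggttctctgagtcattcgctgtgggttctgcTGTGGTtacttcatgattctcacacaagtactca
These letters were found in the 250 bases before the start of 6 of the 8 genes, namely Ncr1, Klrb1c, Gzma, Gzmb, Prf1 and Nkg7, and in neither Eomes nor Tbx21. The same letters occurred on either strand in 14.0% of all 32851 promoter entries of this length. They were chosen for display after the sequences had been read, so this is a description of the letters and not of a bound factor. The T-box letters GGTGTGA were present in Nkg7 only (3.33% of all entries), the STAT letters TTCNNNGAA also in Nkg7 only (7.02%), and the ETS letters AGGAAG in 4 of the 8 genes (29.5%). All 4 motifs were looked for on both strands, and no match of one overlapped a match of another in these genes.

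None of the 10 genes differed between R/R and WT lungs beyond the spread between lungs. All 10 passed the filter on low counts, with between 12 (Klrg1) and 249 (Gzma) counts in a lung, and 0 were called at an adjusted p of 0.05 by edgeR's quasi-likelihood test, by DESeq2 (which gave an adjusted p for 9 of them) or by limma-voom. Over all 17120 genes tested, 1.75% were called, 1.10% as lower and 0.648% as higher in R/R lungs. No member reached an unadjusted p of 0.05 either, where 14.2% of all genes did. In none of the 10 did the R/R and WT lungs separate without overlap, as they did in 18.7% of all genes. Shares of this size leave few of any 10 genes, so these counts of 0 do not set the 10 apart from other genes. Exact two-sided permutation of the log2 CPM gave p from 0.4 to 1 for the 10 genes, where 3 lungs against 3 cannot go below 0.1. Of the 10 log2 fold changes 5 were below and 5 above 0, with a median of 0.03, beside 0.0045 over all genes. In bulk lung, the number of NK cells and the RNA per NK cell cannot be told apart.

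**Figure D1:**
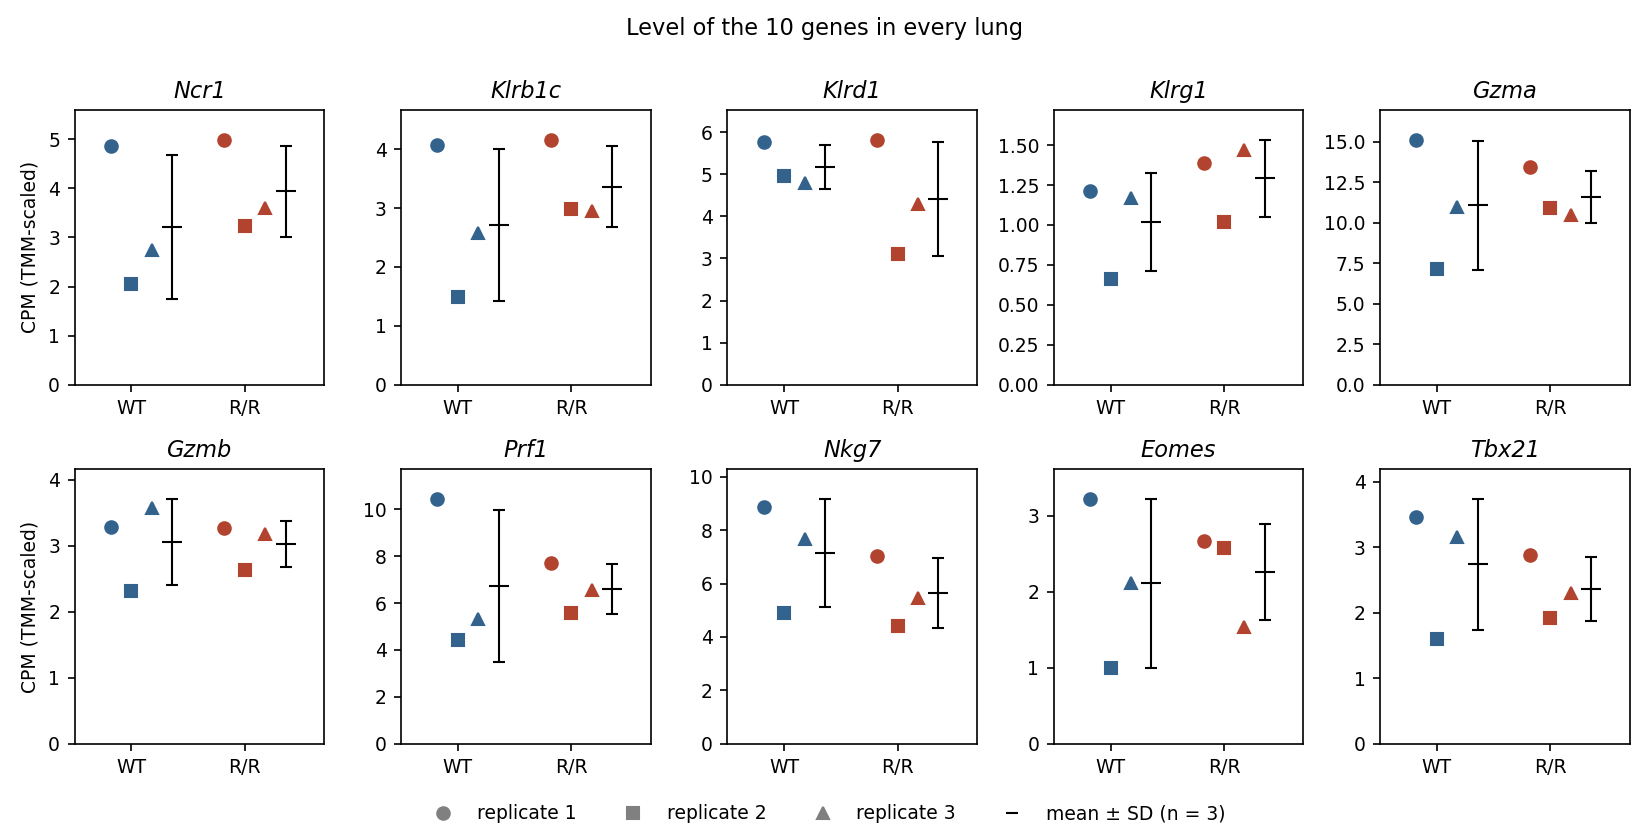
Level of each of the 10 genes in every lung, in TMM-scaled CPM on the vertical axis (linear, from 0). WT lungs are in blue, R/R lungs in red and the mean ± SD of 3 lungs in black. Marker shapes are replicate numbers, which the labels do not tie across genotypes. In every panel the red and blue points overlap, and WT 2 (blue square) is the lowest of the 3 WT lungs in 9 of the 10 panels.

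Among the receptors, Ncr1 (ENSMUSG00000062524.4, chromosome 7, 4337724 to 4345164, plus strand of GRCm38) encodes NKp46, an activating receptor and the most specific NK marker of the list. It was at 4.99, 3.23 and 3.59 CPM in the R/R lungs and at 4.86, 2.04 and 2.75 CPM in the WT lungs. The highest R/R and the highest WT lung lay close together, and the lowest value was a WT lung. The log2 fold change was 0.30 (95% interval from -0.36 to 0.96; adjusted p = 0.729, edgeR quasi-likelihood test), so that levels from 0.779 to 1.95 times those of WT lie within the interval.

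Klrb1c (ENSMUSG00000030325.16, chromosome 6, 128778485 to 128789215, minus strand) encodes the activating receptor known as NK1.1, by which NK cells of C57BL/6 mice are stained. Its levels were 4.16, 2.99 and 2.95 CPM in R/R lungs and 4.07, 1.49 and 2.58 CPM in WT lungs. These followed Ncr1 lung by lung, with Pearson's r of 0.972 over 6 lungs, the highest among the 45 pairs of genes. The log2 fold change was 0.32 (from -0.38 to 1.02; adjusted p = 0.726). Of its exonic bases 13.9% are shared with Gm44511 on the same strand, and read pairs there were left uncounted.

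Klrd1 (ENSMUSG00000030165.16, chromosome 6, 129591782 to 129598775, plus strand) encodes CD94, the partner chain of the NKG2 receptors. It was the most even gene among WT lungs, at 5.77, 4.97 and 4.80 CPM, and the R/R lungs lay at 5.83, 3.11 and 4.30 CPM. Both the highest and the lowest of the 6 values came from R/R lungs. Klrd1 had a log2 fold change of -0.23 (from -0.72 to 0.26; adjusted p = 0.724).

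Klrg1 (ENSMUSG00000030114.8, chromosome 6, 122270596 to 122282882, minus strand), an inhibitory receptor of mature NK cells and effector T cells, had the fewest counts of the 10 genes. It was measured at 1.39, 1.02 and 1.47 CPM in R/R lungs and at 1.21, 0.66 and 1.17 CPM in WT lungs. The lowest of these rests on 12 counts, with an exact 95% Poisson interval from 6.20 to 21.0 counts that covers counting error only. Its log2 fold change of 0.35 was the highest of the 10 and had the widest interval of the 4 receptors, from -0.39 to 1.10 (adjusted p = 0.713).

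Among the granule genes, Gzma (ENSMUSG00000023132.8, chromosome 13, 113093825 to 113100981, minus strand), a tryptase-like granzyme held ready in resting NK cells, was the most abundant. The R/R lungs had 13.4, 10.9 and 10.5 CPM and the WT lungs 15.1, 7.12 and 10.95 CPM. The R/R values thus lay wholly inside the range of the WT values. As mean ± SD of 3 lungs, Gzma was at 11.6 ± 1.599 CPM in R/R and at 11.1 ± 4.00 CPM in WT. This gave a log2 fold change of 0.07 (from -0.41 to 0.55; adjusted p = 0.927).

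Gzmb (ENSMUSG00000015437.5, chromosome 14, 56258838 to 56262260, minus strand), the granzyme that cleaves after aspartate and activates caspases, was at 3.27, 2.63 and 3.18 CPM in R/R lungs and at 3.28, 2.32 and 3.57 CPM in WT lungs. It varied least over the 6 lungs, by a factor of 1.54 between the highest and the lowest. Its log2 fold change was -0.01 (from -0.52 to 0.50; adjusted p = 0.995), so the interval holds levels from 0.6995 to 1.41 times those of WT.

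Prf1 (ENSMUSG00000037202.6, chromosome 10, 61297833 to 61304680, plus strand) encodes perforin, the pore-forming protein of the granule. Levels of 7.71, 5.56 and 6.54 CPM were found in R/R lungs and of 10.4, 4.42 and 5.33 CPM in WT lungs. As with Gzma, both extremes were WT lungs, and the R/R lungs lay between them. Prf1 had a log2 fold change of -0.02 (from -0.63 to 0.59; adjusted p = 0.986).

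Nkg7 (ENSMUSG00000004612.9, chromosome 7, 43437073 to 43438249, plus strand), a granule membrane protein needed for degranulation, had the lowest fold change of the 10 genes. Its levels were 7.05, 4.42 and 5.48 CPM in R/R lungs and 8.87, 4.91 and 7.67 CPM in WT lungs. R/R 1 was above WT 2, so the genotypes overlapped. The log2 fold change was -0.33 (from -0.84 to 0.18), with an unadjusted p of 0.1799 and an adjusted p of 0.584, the smallest adjusted p among the 10 genes in the quasi-likelihood test.

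Of the transcription factors, Eomes (ENSMUSG00000032446.14, chromosome 9, 118478212 to 118486132, plus strand), which separates NK cells from most other innate lymphoid cells, was at 2.66, 2.57 and 1.53 CPM in R/R lungs and at 3.22, 0.99 and 2.11 CPM in WT lungs. It spanned the widest range of the 10 genes, with 3.24 times as much in WT 1 as in WT 2. The log2 fold change was 0.11 (from -0.72 to 0.94; adjusted p = 0.938). Of the exonic bases of Eomes 2.84% are shared with Gm33460 on the minus strand, and read pairs there were left uncounted. Tbx21 (ENSMUSG00000001444.2, chromosome 11, 97098071 to 97115331, minus strand) was at 2.89, 1.91 and 2.30 CPM in R/R lungs and at 3.46, 1.601 and 3.16 CPM in WT lungs. Its R/R values again lay inside the WT range, and the log2 fold change was -0.20 (from -0.87 to 0.46; adjusted p = 0.832).

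**Figure D2:**
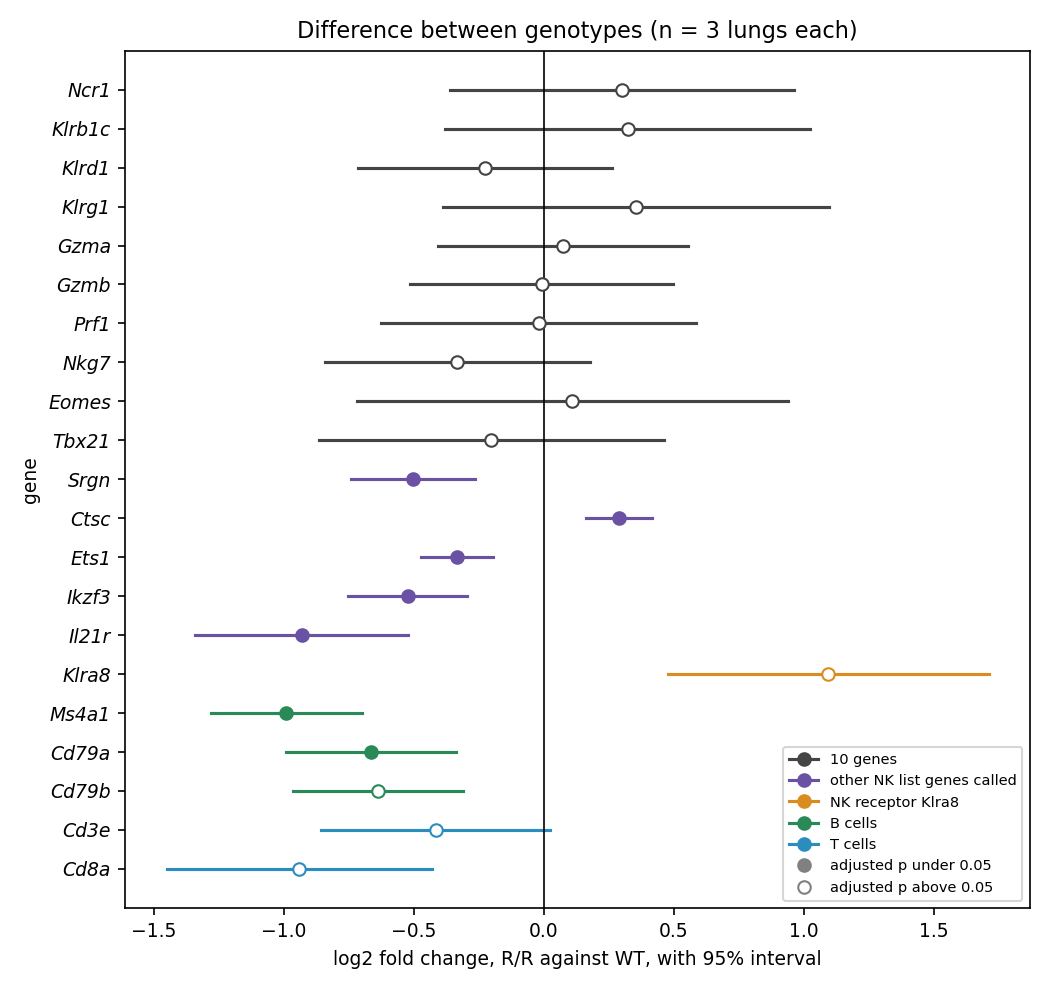
Log2 fold change of R/R against WT lungs (horizontal axis, with 95% intervals from edgeR's quasi-likelihood fit) for the 10 genes, for the other NK list genes called, for Klra8 and for markers of B and T cells; filled points have an adjusted p under 0.05. The intervals of all 10 genes cross 0, while that of Ms4a1 ends at -0.70.

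Per length of exon, Gzma had the highest mean level over the 6 lungs (11.3 RPKM, range from 7.08 to 15.03). It was followed by Nkg7 (7.002 RPKM), Klrd1 (3.74), Prf1 (2.58), Ncr1 (2.32), Gzmb (2.12), Tbx21 and Klrb1c (both 1.03), Klrg1 (0.816) and Eomes (0.525 RPKM). Neighbours in this order overlapped over the 6 lungs, with 2 exceptions. The lowest Nkg7 value, 4.84 RPKM, was above the highest Klrd1 value, 4.55 RPKM, and the lowest Gzmb value, 1.61 RPKM, was above the highest Tbx21 value, 1.39 RPKM.

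What the 10 genes did share was a pattern across individual lungs that ran across the genotypes. On the log2 scale, the mean deviation of the 10 genes from their own means was 0.43 in WT 1 and 0.32 in R/R 1. It was 0.03 in WT 3 and -0.03 in R/R 3, then -0.17 in R/R 2 and -0.58 in WT 2. All 10 genes were above their mean in WT 1 and in R/R 1, and 9 of the 10 were below it in WT 2. Within genotypes, WT 1 was the highest WT lung in 9 genes and R/R 1 the highest R/R lung in 9.

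**Figure D3:**
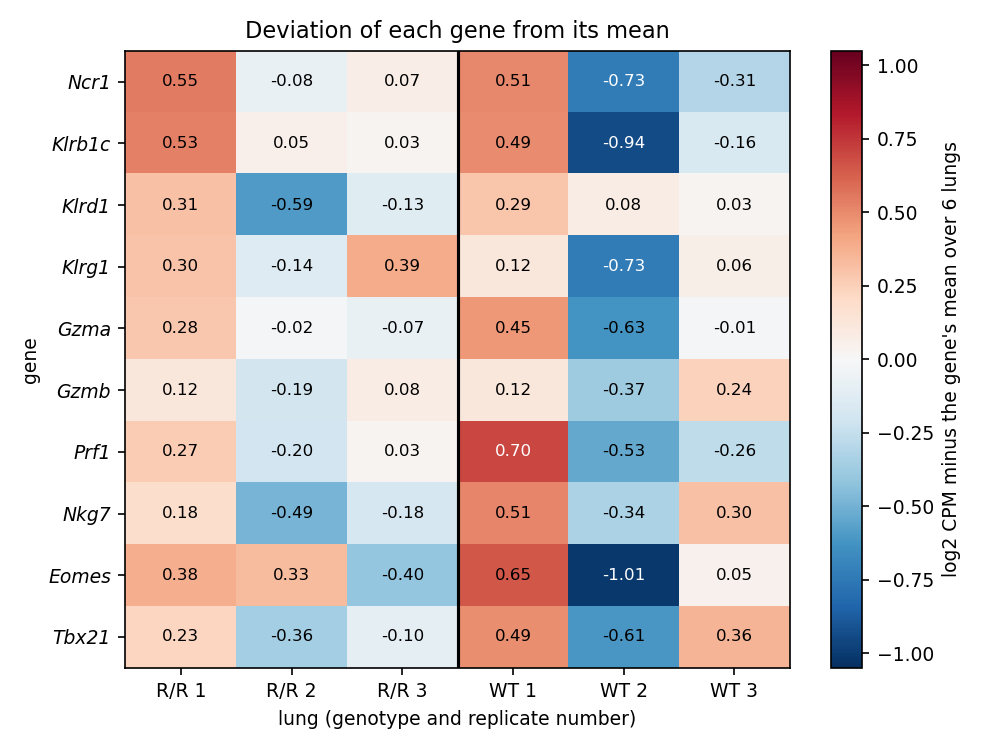
Log2 CPM of each gene (rows) in each lung (columns) minus the mean of that gene over the 6 lungs, red above and blue below it, with R/R lungs left of the black line and WT lungs right of it. The columns of R/R 1 and WT 1 are above the mean throughout, and the column of WT 2 is below it in every row but Klrd1.

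Over the 6 lungs, all 45 pairs of the 10 genes had a positive Pearson's r of log2 CPM, with a median of 0.73 and a range from 0.085 to 0.972. These are descriptions over 6 libraries, in each of which the 10 genes share the sequencing depth and cell makeup. Klrd1 was the gene least like the others, with a median r of 0.352, and its lowest pair was with Eomes. Gzma had the highest median r with the others, 0.851. Between the extreme WT lungs, the level in WT 1 was 2.38 times that in WT 2 for Ncr1, 2.73 times for Klrb1c, 2.12 times for Gzma and 2.37 times for Prf1, but 1.16 times for Klrd1. The spread among WT lungs exceeded counting error most in Prf1 and Gzma, with a chi-square per degree of freedom of 26.9 and 25.3, and was within it in Klrd1, with 0.871. Among R/R lungs the same measure lay between 0.681 for Gzmb and 7.27 for Klrd1. For the same relative spread it is larger in genes with more counts. By the SD of log2 CPM among WT lungs, Eomes (0.844) and Klrb1c (0.717) varied more than Prf1 (0.651) and Gzma (0.544).

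Summed over the 10 genes, R/R lungs held 53.4, 38.3 and 41.8 CPM and WT lungs 60.3, 30.5 and 44.1 CPM. The means were 44.5 ± 7.89 and 45.0 ± 14.9 CPM (SD, n = 3 each), a ratio of 0.990. The 4 receptors together had a ratio of 1.07, the 4 granule genes of 0.960 and the 2 factors of 0.953, and the genotypes overlapped in each of these sums. The NK cell marker list, which holds Ncr1, Klrb1c and Eomes with Klre1 and Klra8, had a ratio of 1.31, with sums of 17.9, 15.1 and 12.7 CPM in R/R lungs and 16.3, 6.46 and 12.1 CPM in WT lungs. Its genotypes overlapped too. All 5 of its log2 fold changes were above 0, with a median of 0.30, and 0 were called (1, Klra8, at an unadjusted p under 0.05). The list holds none of the 5 of the 10 genes that lay below 0, and it also leaves out Klrg1 and Gzma, which lay above 0. Klra8 added a mean of 3.17 CPM to the sum in R/R and 1.49 CPM in WT lungs. Without WT 2, Eomes was at -0.24 and Klre1 at -0.09. For the 10 genes the median log2 fold change depended on the extreme WT lungs, since it was 0.40 without WT 1 and -0.21 without WT 2. Without WT 1, Ncr1 had a log2 fold change of 0.72 (unadjusted p = 0.0269 and adjusted p = 0.400 by edgeR's quasi-likelihood test) and Klrb1c one of 0.73 (0.0406 and 0.462). Without WT 2, Nkg7 had one of -0.55 (0.0239 and 0.349).

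The genes that followed the mean of the 10 most closely over the 6 lungs, among the 14191 other genes whose mean log2 CPM reached 1, were Rbm43, Fto, Sla, Psmc4, Gm13370, Galnt17, Ndrg1, Rabl3, Cog5 and Slc9a7, with r from 0.975 to 0.996. With each genotype centred on its own mean, the closest 5 were Rbm43, Fam53a, Atxn7l1, 5330438D12Rik and Ndrg1. The SD of their log2 CPM over the 6 lungs ran from 0.033 for Atxn7l1 and 0.052 for Rbm43 to 0.361 for Gm13370, beside 0.362 for the mean of the 10. In all, 63 genes, or 0.444%, had an r over 0.9.

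A wider list of 86 genes of NK receptors, adaptors, granules, transcription factors and cytokine signals was examined in the same fit. Of these 74 passed the filter, 47 with a log2 fold change below and 27 above 0, with a median of -0.07. An unadjusted p under 0.05 (edgeR's quasi-likelihood test) was reached by 21 of the 74, and by 14.2% of all genes tested. There were 4 called as lower and 1 as higher in R/R lungs, against background shares of 1.10% and 0.648%. Those called were Srgn, Ets1, Ikzf3, Il21r and Ctsc, none of which is restricted to NK cells. The number of calls in the list, not always of these genes, was 0 without R/R 3 or without WT 1, 1 without R/R 2 or WT 2, 3 without R/R 1 and 5 without WT 3, and calls over all genes moved as well, from 300 to between 65 and 621. The log2 fold changes of the 5 genes kept their direction with each library left out, from -0.64 to -0.41 for Srgn, from -0.36 to -0.29 for Ets1, from -0.59 to -0.42 for Ikzf3, from -1.048 to -0.74 for Il21r and from 0.26 to 0.31 for Ctsc.

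Among the 26 further receptors, 21 were tested, 8 below and 13 above 0, and 0 were called (3 at an unadjusted p under 0.05, beside 14.2% of all genes). Klra8, which encodes the activating receptor Ly49H that recognizes a protein of mouse cytomegalovirus, had the highest fold change. It was at 3.44, 3.35 and 2.71 CPM in R/R lungs and at 1.88, 0.94 and 1.64 CPM in WT lungs. All R/R lungs were above all WT lungs, and the log2 fold change was 1.10 (95% interval from 0.48 to 1.71; adjusted p = 0.0839, edgeR quasi-likelihood test). Near-identical Ly49 copies make its count uncertain, since read pairs with more than one place of origin were left out by the counting. Cd160, chosen after its values were seen, had a log2 fold change of 1.07 (adjusted p = 0.302) with overlapping genotypes. The lowest receptor was Cd244a, an adhesion receptor of the SLAM family, with a log2 fold change of -0.32 (adjusted p = 0.392). The highest level per length was that of Itga2, an integrin also found on platelets and other cells, at 6.94 RPKM (log2 fold change -0.20, adjusted p = 0.199). Klrk1, which encodes NKG2D, had a log2 fold change of 0.24 (adjusted p = 0.630).

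All 12 adaptors and signalling genes were tested, and 10 lay below and 2 above 0, with a median of -0.34 and 0 called. An unadjusted p under 0.05 was reached by 6 of them, beside 14.2% of all genes. The lowest was Sh2d1a, the SLAM-associated adaptor SAP of T and NK cells, at -0.76 (from -1.64 to 0.11; adjusted p = 0.431). The highest was its relative Sh2d1b1, which encodes EAT-2, at 0.36 (from 0.05 to 0.66; adjusted p = 0.264). Tyrobp, the adaptor DAP12 of activating Ly49 receptors and of myeloid receptors, had the highest level per length, 67.8 RPKM. Its log2 fold change was 0.01 (from -0.21 to 0.23; adjusted p = 0.981). Several of these genes also serve B, T or myeloid cells, whose markers are given below.

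Of 17 further granule and effector genes 13 were tested, 9 below and 4 above 0. An unadjusted p under 0.05 (edgeR's quasi-likelihood test) was reached by 3 of them, beside 14.2% of all genes. Srgn, the proteoglycan serglycin that packs granzymes in the granule and is made by many leukocytes, fell, at 66.8, 83.5 and 61.7 CPM in R/R lungs and 107, 106 and 86.9 CPM in WT lungs (log2 fold change -0.50, adjusted p = 0.0444). Ctsc, the protease that activates pro-granzymes and is abundant in macrophages, rose, at 318, 333 and 336 CPM in R/R lungs and 257, 274 and 277 CPM in WT lungs (log2 fold change 0.29, adjusted p = 0.0341). The genotypes did not overlap in either gene, as in 18.7% of all genes tested. Lamp1, a membrane protein of lysosomes and granules in all cells, was the most abundant at 243 RPKM (log2 fold change 0.09, adjusted p = 0.517). Ifng, the cytokine interferon-γ, was below the filter, with 6 counts in all over the R/R lungs (exact 95% Poisson interval from 2.20 to 13.1) and 13 over the WT lungs (from 6.92 to 22.2), too few to detect a difference between the genotypes. Gzmk was likewise too low, with 7 and 15 counts, and Gzmc and Gzmn had at most 1.

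Of 13 further transcription factors 12 were tested, 9 below and 3 above 0, and 2 were called, both as lower, beside 1.10% of all genes. An unadjusted p under 0.05 (edgeR's quasi-likelihood test) was reached by 4 of them, beside 14.2% of all genes. Ets1, a factor of NK, T, B and endothelial cells, fell, with 347, 346 and 314 CPM in R/R lungs and 416, 444 and 410 CPM in WT lungs (log2 fold change -0.33, adjusted p = 0.0302). Ikzf3, the lymphoid factor Aiolos, fell too, with 17.4, 17.3 and 15.6 CPM in R/R lungs and 27.6, 22.0 and 22.8 CPM in WT lungs (log2 fold change -0.52, adjusted p = 0.0341). Klf2, a factor of quiescent lymphocytes and of endothelium, was both the highest in fold change, at 0.38 (adjusted p = 0.510), and the highest in level, at 146 RPKM, with overlapping genotypes.

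Among 18 genes of cytokine and chemokine signals to NK cells 16 were tested, 11 below and 5 above 0. An unadjusted p under 0.05 (edgeR's quasi-likelihood test) was reached by 5 of them, beside 14.2% of all genes. Il21r, the receptor of interleukin-21 on B, T and NK cells, fell, from 10.7, 8.67 and 11.1 CPM in WT lungs to 6.11, 5.98 and 3.83 CPM in R/R lungs (log2 fold change -0.93, adjusted p = 0.0341). Il18, an activating cytokine of NK cells made by myeloid and epithelial cells, had the highest fold change at 0.46 (adjusted p = 0.165). Its receptor chain Il18r1 was the most abundant at 30.0 RPKM (log2 fold change -0.12, adjusted p = 0.371). Il2rb, the chain by which NK cells receive interleukin-15, was at 16.8 ± 2.22 CPM in R/R and 16.1 ± 2.87 CPM in WT lungs (adjusted p = 0.888). Over the 6 lungs it was also the gene of the wider list most like the mean of the 10, with r = 0.955. The maturation genes S1pr5 (-0.48, adjusted p = 0.367) and Cx3cr1 (-0.50, adjusted p = 0.164) and the chemokine Ccl5 (-0.47, adjusted p = 0.301), named after their values were seen, had negative log2 fold changes that did not pass the test.

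Markers of other leukocytes were read in the same libraries. Of 3 B cell genes 2 fell in R/R lungs, Ms4a1 (log2 fold change -0.99, adjusted p = 0.00675) and Cd79a (-0.67, adjusted p = 0.0491), and Cd79b had a log2 fold change of -0.64 (adjusted p = 0.0593). Over all genes tested, 1.10% were called as lower. With each library left out in turn, Ms4a1 was called in 6 of 6 fits and Cd79a in 2. All 6 T cell genes and both CD8 genes had negative log2 fold changes and 0 were called, with medians of -0.61 and -0.89. An unadjusted p under 0.05 (edgeR's quasi-likelihood test) was reached by 4 of the 6 and by both CD8 genes, beside 14.2% of all genes. The genotypes did not overlap in 5 of the 6 and in both CD8 genes, beside 18.7% of all genes. Summed CPM ranged from 40.6 to 60.2 in R/R and from 79.8 to 102 in WT lungs for the B cell list, from 18.8 to 25.8 and from 30.4 to 40.2 for the T cell list, and from 6.83 to 8.27 and from 10.8 to 19.8 for the CD8 list. The genotypes separated in these 3 sums but not in that of the 10 genes, beside 18.7% of all single genes in which they separated. Other sums separated as well, those of the red cell and monocyte lists given below and that of mast cells and basophils. The latter ran from 5.30 to 6.815 CPM in R/R and from 8.20 to 8.685 CPM in WT lungs, with 1 of its 4 genes tested. Cd4 overlapped, from 5.42 to 7.05 CPM in R/R and from 6.44 to 7.73 CPM in WT lungs.

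Other lists moved with the lungs as well. The 5 genes of all leukocytes summed to between 545 and 592 CPM in R/R and between 561 and 669 CPM in WT lungs. The 4 neutrophil genes, none of them called, summed to 51.5, 35.5 and 28.4 CPM in R/R lungs and to 119, 34.5 and 105 CPM in WT lungs, so that WT 2 was the lowest WT lung here too. All 4 log2 fold changes were below 0, from -1.31 to -0.84 with a median of -1.19. An unadjusted p under 0.05 (edgeR's quasi-likelihood test) was reached by all 4, and by 14.2% of all genes. The 3 red cell genes summed to between 1067 and 1984 CPM in R/R and between 2179 and 2877 CPM in WT lungs, and Hba-a1 was called as lower (log2 fold change -0.78, adjusted p = 0.0478). Areg of the innate lymphoid (ILC2) list (1.66, adjusted p = 0.0434) and Nr4a1 of the monocyte list (0.76, adjusted p = 0.0148), both also known as early induced genes, were called as higher. The other 3 monocyte genes lay below 0, Ly6c2 at -0.13, Ccr2 at -0.32 and Ace at -0.14, with 0 called. The monocyte list summed to between 1578 and 1619 CPM in R/R and between 1621 and 1774 CPM in WT lungs. Ace alone made up most of that sum, and its genotypes overlapped, with R/R lungs at 1507, 1443 and 1450 CPM and WT lungs at 1673, 1663 and 1501 CPM. The sum therefore follows Ace more than the other 3 genes of the list. The ILC2 list had a median log2 fold change of 0.08, with Il1rl1 at -0.14. With 1 library left out, Hba-a1 and Areg were each called in 2 of 6 fits and Nr4a1 in 5. The part of these cells in the levels of the 10 genes was not tested.

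**Figure D4:**
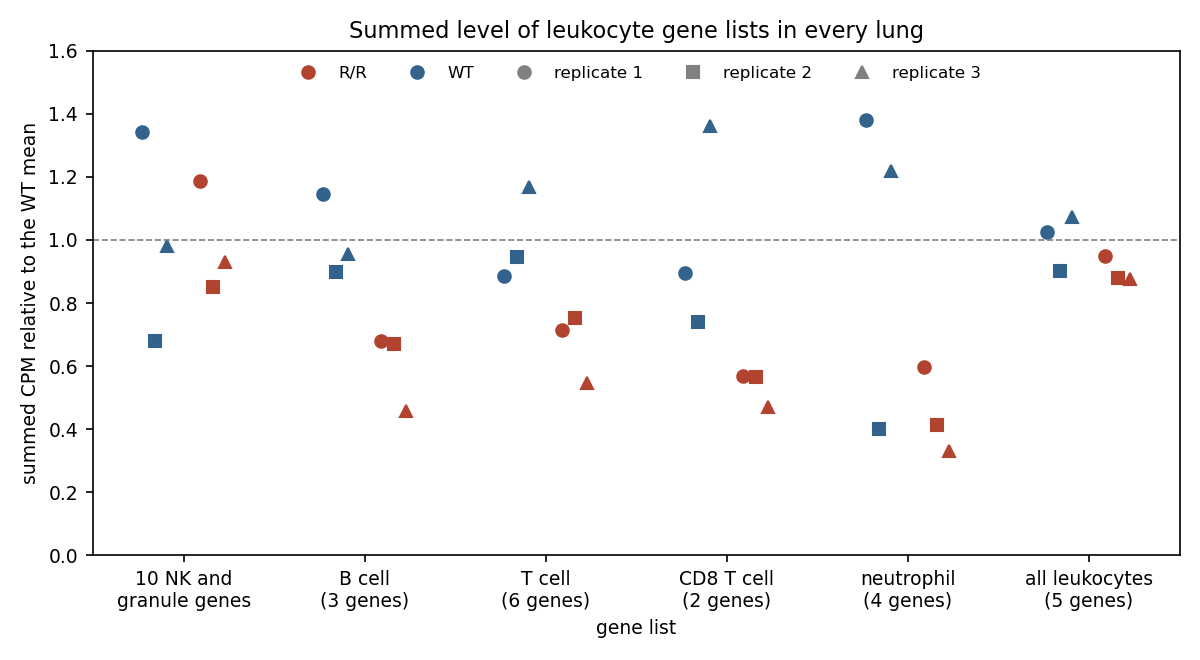
Summed CPM of 6 gene lists in every lung, divided by the mean of the 3 WT lungs for that list (vertical axis, linear; dashed line at 1), with R/R lungs in red, WT lungs in blue and marker shapes for replicate numbers. Red and blue points separate for the B cell, T cell and CD8 T cell lists and overlap for the 10 NK and granule genes, for neutrophils and for all leukocytes.

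The direct comparison of Ncr1 with markers of T cells and of all leukocytes in the same library was made for 3 pairs, chosen after the values had been seen. The log2 ratio of Ncr1 to Cd8a was 0.17, -0.56 and -0.20 in R/R lungs and -0.72, -1.50 and -2.09 in WT lungs. Each R/R lung was above each WT lung, with a difference of 1.24 (p = 0.1 by exact two-sided permutation, the lowest value that 3 lungs against 3 can give, and 0.3 after adjustment over the 3 pairs). Cd8a by itself already separated the genotypes (log2 fold change -0.94, adjusted p = 0.0721 by edgeR's quasi-likelihood test). Ncr1 by itself overlapped (0.30), so this ratio largely follows Cd8a. For Cd3e and Ptprc the difference was 0.79 and 0.60, with overlapping genotypes (exact permutation p = 0.3 for each, before and after adjustment).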

How the data were processed

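RNA from the lungs of 3 R/R and 3 WT mice was sequenced. The authors mapped paired reads of 150 bases with HISAT2 2.1.0 to the GRCm38 (mm10) genome, and the deposited table holds their raw counts, 1 for each gene and lung (featureCounts 2.0.1, GENCODE M25, no strand, no multi-mapping or overlapping pairs). The paper names another version of featureCounts and describes the sequencing as stranded. 1 deposited column is recorded here as an estimated count because of the header's layout. It holds whole numbers and was used unrounded. Symbols matched 55141 of 56262 identifiers. The labels do not tie library numbers across genotypes.

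Genes were kept by filterByExpr (minimum count 10, total 15), scaled by TMM and compared with edgeR 4.0.16 (glmQLFit, glmQLFTest, R 4.3.3) and Benjamini-Hochberg adjustment. Standard errors are fold change over the square root of F, and 95% intervals use 4 residual plus 7.66 prior degrees of freedom. Log2 CPM used a prior count of 0.5. Alternatives were DESeq2 1.42.0, limma-voom (limma 3.58.1), other scalings, filters and thresholds, a replicate block and each library left out.

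The 10 genes and all lists were chosen with earlier results of these data known. Named genes are the 10, the called genes, extremes in fold change and level of each list, and a few marked as chosen later. Intervals from counts cover counting error only, and 3 counts equal at most 0.182 CPM. A further marker gene is not reported here.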

Additional observations from a re-analysis of the deposited data

How the results depend on the processing

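Calls among the 10 genes were 0 under each of 15 alternatives. Their median log2 fold change ran from 0.03 to 0.12 over scalings, filters, tools and the block, and from -0.21 (without WT 2) to 0.40 (without WT 1) with 1 library left out. Directions close to 0 turned. Under limma-voom Gzmb was at 0.015 and Prf1 at 0.085, as mean log2 CPM they were at 0.0041 and 0.063, and with the replicate block Prf1 was at 0.035. With 1 library left out, Gzma ranged from -0.17 to 0.36, Gzmb from -0.18 to 0.12, Prf1 from -0.25 to 0.44, Eomes from -0.24 to 0.55, Tyrobp from -0.091 to 0.10, Klre1 from -0.088 to 0.63, Ly6c2 from -0.26 to 0.0047 and Il2rb from -0.047 to 0.21. The summed level of R/R over WT ranged from 0.853 without WT 2 to 1.19 without WT 1, an alternative chosen after seeing the data.

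Calls in the wider list were 14 without a filter on low counts, where the prior degrees of freedom became infinite, and 4 to 7 under the other settings that kept all libraries. With 1 library left out they ranged from 0 (without R/R 3 or WT 1) to 5 (without WT 3), with 3 without R/R 1 and 1 without R/R 2 or WT 2. Calls over all genes were 530 by DESeq2, 1109 without a filter and 548 at an adjusted p of 0.10, and from 65 (without WT 1) to 621 (without WT 3) with 1 library left out. Klra8 passed an adjusted p of 0.05 without the filter (0.00413) and in none of the other fits, and its adjusted p of 0.0839 is under the threshold of 0.10. Cd79a was called in 5 and Cd8a in 2 of 7 alternative fits.

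Over all genes tested, same-numbered R/R and WT lungs did not deviate together (correlations of -0.014, -0.004 and -0.015), so the numbers were not used to pair animals. In the 10 genes the mean deviations of number 1 were 0.32 (R/R) and 0.43 (WT), those of number 2 were -0.17 and -0.58, and those of number 3 were -0.03 and 0.03. With the replicate block, 0 of the 10 genes, 7 genes of the wider list and 446 of all genes were called, and Cx3cr1 passed the test (adjusted p = 0.0299). With 3 lungs a genotype, the intervals of the 10 genes reach up to between 1.13 (Nkg7) and 2.14 times WT (Klrg1) and down to 0.548 times WT (Tbx21), and Klrg1 rests on 12 to 25 counts a lung.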
